A study of Mus musculus with 9 samples.

Results

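Cytotoxic T lymphocytes (CTL) cultured with KU-0063794 were compared with CTL from the same spleens cultured with rapamycin, to ask what inhibition of the whole mTOR kinase adds to rapamycin. The comparison rests on 6 of the 9 arrays of the series, 3 per inhibitor, paired by spleen, and the 3 DMSO arrays give the level in solvent controls. All cells came from mice labelled wild type that carry the P14 T cell receptor transgene, which recognises the viral peptide gp33-41. Spleen cells, 1 spleen per replicate, were activated with this peptide, interleukin 2 and interleukin 12 for 48 h and then cultured for 96 h more. The cells of each spleen were split for the final 48 h among DMSO, 20 nM rapamycin and 1 uM KU-0063794, and total RNA was measured on day 6 on 1 Affymetrix array per culture. Each inhibitor was therefore seen at a single dose and time, in bulk cultured cells of a single receptor specificity, and the doses differ, so the values describe these culture conditions and do not rank the compounds by potency. In bulk RNA, fewer cells of a type and less RNA per cell cannot be told apart.

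mTOR is a kinase that works in 2 complexes. Complex 1 drives protein, ribosome and lipid synthesis and restrains autophagy, and complex 2 activates AKT, which keeps FOXO transcription factors out of the nucleus. Rapamycin binds FKBP12, and the pair attaches to mTOR in complex 1, blocking some of its substrates more fully than others. KU-0063794 occupies the ATP site of the kinase and so acts on both complexes. In CD8 T cells this pathway is known for setting metabolism, effector function and the return of lymph node homing receptors.

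Signals are in log2 units per probe set, and each gene is represented by the probe set with the highest mean over the 9 arrays. Of 18193 genes, 13278 had a mean signal above 0.31 log2 and were tested. A background level of 2.31 log2 was taken from 30 genes restricted to other tissues, and 23.0% to 23.7% of probe sets lay above it on each array. The labelled cell type was borne out in both inhibitor groups: 12 of 13 measured identity genes, including Cd3d, Cd8a and Cd8b1, were above background, with a median of 7.14 log2 with rapamycin and 7.0 with KU-0063794. No measured marker of B cells (9), myeloid cells (14), NK cells (3), CD4 T cells (4) or erythroid and stromal cells (7) was above background in either group. The third rapamycin array stood somewhat apart in its hybridisation controls, with a mean of 7.82 log2 against 7.24 to 7.64 on the other arrays. The 3' minus 5' signal of actin, a sign of RNA quality, was 0.62 to 0.72 log2 with rapamycin and 0.65 to 0.70 with KU-0063794.

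No gene passed the threshold between the inhibitors: in the limma fit with the spleen as a block, 0 of 13278 genes (0%) had an adjusted p under 0.05, and the smallest adjusted p was 0.0587. Against the same DMSO cultures, 1561 genes (11.8%) passed with rapamycin, 828 (6.24%) higher and 733 (5.52%) lower, and 1644 (12.4%) with KU-0063794, 866 (6.52%) higher and 778 (5.86%) lower. At an unadjusted p under 0.05, 719 genes (5.41%) read higher with KU-0063794 than with rapamycin and 610 (4.59%) read lower. The size of what could have been missed was bounded. The 95% interval of the difference lay within 2-fold in both directions for 13232 genes (99.7%), and for 6616 of the 6642 genes (99.6%) above background in an inhibitor group. The interval reached 0.19 log2 to either side of the estimate at the median over the genes above background. Only Ccn3 and Iigp1 had a fitted difference of 1 log2 unit or more, both lower with KU-0063794. In data simulated for this comparison, 200 of 13278 genes were changed by the same amount. The procedure found 51.5% of them at 0.5 log2 and 96% at 1 log2. These shares hold for the simulated noise and for that number of changed genes. The share that would be found on the real arrays, or among genes under background, was not tested. That a gene did not pass does not show that both inhibitors gave it the same level.

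**Figure D1:**
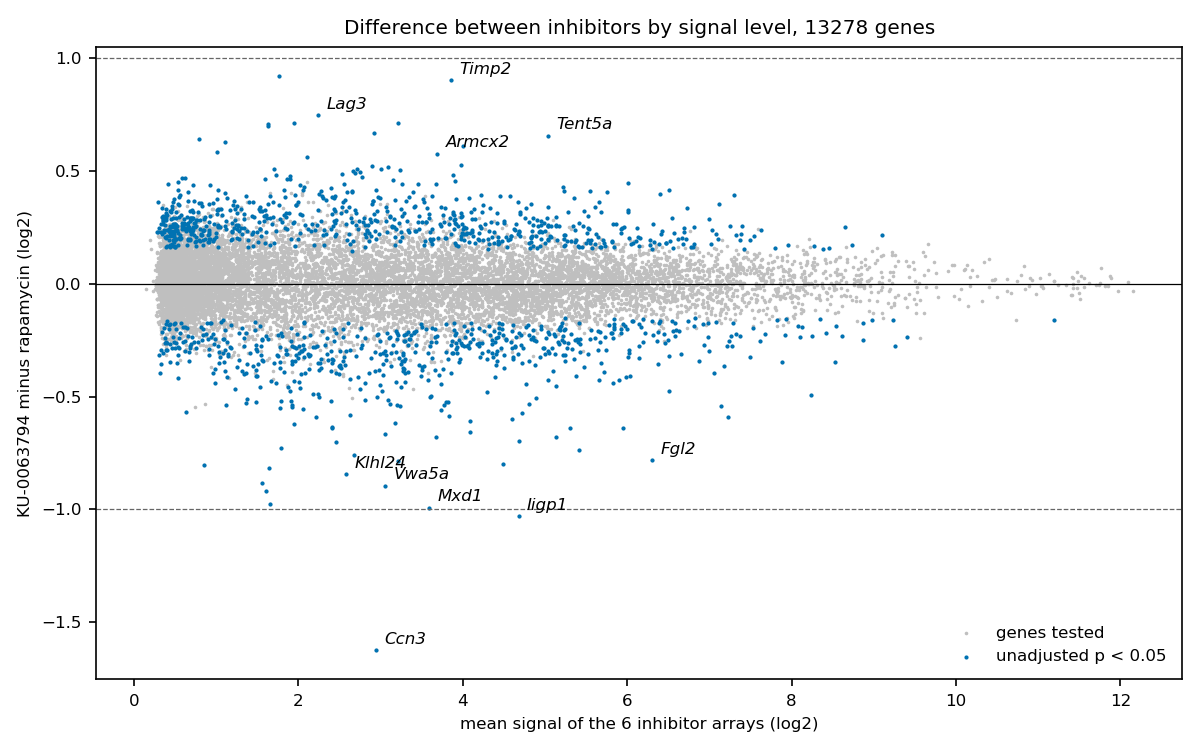
Difference between KU-0063794 and rapamycin cultures (log2, vertical) against the mean signal of the 6 inhibitor arrays (log2, horizontal) for 13278 genes. Each point is a gene, blue points have an unadjusted p under 0.05, dashed lines mark 2-fold, and 2 genes, Ccn3 and Iigp1, lie beyond them.

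The genes nearest to the threshold were lower with KU-0063794. Fgl2, Mxd1 and Ccn3 had the smallest adjusted p (0.0587 each), followed by Vwa5a (0.0766) and by Slfn1 (0.0957), which was under background on all 9 arrays, is named here after its values were seen and is left out below. Errfi1 came next among the genes that were above background in an inhibitor group and lower in all 3 spleens. Ccn3 encodes a secreted matrix-associated protein of the CCN family. It read 4.34, 3.20 and 3.74 log2 in the rapamycin cultures of spleens 1, 2 and 3, and 2.54, 1.81 and 2.04 in the KU-0063794 cultures. The groups did not overlap, the DMSO arrays (2.28, 1.98 and 2.54) lay with the KU-0063794 arrays, and both of those groups were around the background level. The fitted difference was -1.62 log2 (SE 0.17, limma adjusted p = 0.0587), a 3.08-fold lower signal that is uncertain in size because only 1 of the 3 KU-0063794 arrays was above background. Ccn3 rose with rapamycin against DMSO by 1.49 log2 (adjusted p = 0.00301), and its difference between KU-0063794 and DMSO was -0.13 log2 (adjusted p = 0.686).

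Mxd1, whose protein pairs with MAX and represses genes that MYC activates, showed another arrangement. Its signals were 4.69, 3.63 and 3.93 log2 with rapamycin and 3.68, 2.56 and 3.04 with KU-0063794, lower by about the same amount in every spleen although the groups overlapped across spleens. The difference was -0.99 log2 (SE 0.10, adjusted p = 0.0587 by limma), or 1.99-fold. Mxd1 fell with KU-0063794 against DMSO (4.92, 3.51 and 4.29 log2) by 1.15 log2 (adjusted p = 0.0013), while its rapamycin difference from DMSO was -0.16 (adjusted p = 0.374).

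Fgl2, a fibrinogen-like protein that T cells can secrete, moved to opposite sides of the control. It read 7.01, 6.37 and 6.69 log2 with rapamycin, 6.60, 5.86 and 6.34 with DMSO, and 6.17, 5.67 and 5.90 with KU-0063794. The inhibitor groups did not overlap, and in each spleen the DMSO culture lay between them. Fgl2 rose with rapamycin by 0.43 log2 (adjusted p = 0.0109) and fell with KU-0063794 by 0.35 log2 (adjusted p = 0.0219), and the difference between inhibitors was -0.78 log2 (SE 0.07, adjusted p = 0.0587). Vwa5a read 4.02, 2.80 and 3.68 log2 with rapamycin and 2.87, 2.08 and 2.87 with KU-0063794, a difference of -0.89 log2 (SE 0.10, limma adjusted p = 0.0766), with DMSO arrays at 3.26, 2.08 and 3.16. Errfi1, an inhibitor of the EGF receptor family, read 4.61, 3.59 and 4.05 log2 with rapamycin and 4.06, 3.09 and 3.54 with KU-0063794 (-0.52 log2, adjusted p = 0.127). Like Mxd1, it fell against DMSO with KU-0063794 (by 0.63 log2, adjusted p = 0.00219) and had no called difference with rapamycin (-0.11 log2, adjusted p = 0.345).

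The other 10 of the 15 leading lower genes, those with the smallest p that were lower in all 3 spleens and above background, had differences between -0.45 and -0.79 log2 and adjusted p up to 0.290. A pair of them belong to lysosomal transport. Npc2, which binds cholesterol inside lysosomes, read 8.51, 8.24 and 8.70 log2 with rapamycin and 8.05, 7.86 and 8.06 with KU-0063794 (-0.49 log2, adjusted p = 0.239 by limma), without overlap. Igf2r, the receptor that carries newly made enzymes to lysosomes, read 5.42, 4.63 and 4.95 log2 with rapamycin and 4.73, 4.11 and 4.45 with KU-0063794 (-0.57 log2, adjusted p = 0.231). Their DMSO levels lay on opposite sides: Npc2 rose with rapamycin (0.65 log2, adjusted p = 0.0036), and Igf2r fell with rapamycin by 0.51 log2 (adjusted p = 0.0128) and with KU-0063794 by 1.08 log2 (adjusted p = 0.0013).

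Others carry signals into the cell. Smad3, which transmits TGF-beta signals, read 2.44, 3.19 and 2.56 log2 with rapamycin and 1.96, 2.28 and 2.04 with KU-0063794, all 3 of the latter under the background level, so its -0.64 log2 (adjusted p = 0.239) has no measured lower end. Cysltr2, a receptor for leukotrienes, was likewise under background on all 3 KU-0063794 arrays (-0.50 log2, adjusted p = 0.239). Prkd3, a protein kinase D, differed by -0.53 log2 (adjusted p = 0.239), and the adaptor gene Sh3bp2 by -0.50 (adjusted p = 0.289). The interferon-inducible gene Ifi27 read 6.75, 5.79 and 6.26 log2 with rapamycin and 5.95, 5.26 and 5.67 with KU-0063794 (-0.64 log2, adjusted p = 0.239). Trim12a, of the TRIM family, differed by -0.79 log2 (adjusted p = 0.239), Rnf157 by -0.45 (adjusted p = 0.203) and Slco3a1, an organic anion transporter, by -0.50 (adjusted p = 0.290). In all, 6 of the 15 had groups without overlap, where 438 of 13278 genes (3.3%) were without overlap in that direction, and the choice by small p favours such genes. Of the 15, 5 had a probe set of the opposite sign: Rnf157 (2 of 5), Npc2 (2 of 4), Prkd3 (1 of 4), Trim12a (1 of 2) and Smad3 (1 of 3).

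The 15 leading higher genes had smaller differences, 0.32 to 0.90 log2, with adjusted p from 0.158 to 0.299. Timp2, an inhibitor of matrix metalloproteinases, had the largest of them. It read 2.42, 3.71 and 4.08 log2 with rapamycin and 3.77, 4.20 and 4.96 with KU-0063794 (0.90 log2, SE 0.15, limma adjusted p = 0.239). It was higher by 1.34 log2 in spleen 1 and by 0.49 in spleen 2, and the groups overlapped across spleens. Timp2 rose with KU-0063794 against DMSO by 1.30 log2 (adjusted p = 0.00294), and 1 of its 6 probe sets had the opposite sign between the inhibitors.

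Tent5a, a poly(A) polymerase, read 4.02, 5.43 and 4.68 log2 with rapamycin and 5.09, 5.88 and 5.13 with KU-0063794 (0.66 log2, adjusted p = 0.296). It rose against DMSO with both inhibitors, by 0.68 log2 with rapamycin (adjusted p = 0.0149) and by 1.34 log2 with KU-0063794 (adjusted p = 0.0017). Armcx2, of the armadillo repeat family, had the smallest adjusted p of the higher genes (0.158). It read 3.46, 3.65 and 3.09 log2 with rapamycin, 3.93, 4.16 and 3.85 with KU-0063794 and 4.06, 4.28 and 3.96 with DMSO. The inhibitor groups did not overlap, and the KU-0063794 arrays lay near DMSO: Armcx2 fell with rapamycin by 0.70 log2 (adjusted p = 0.00314) and differed from DMSO by -0.12 with KU-0063794 (adjusted p = 0.41).

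Ptpn6 encodes SHP-1, a phosphatase that dampens antigen receptor signalling. It read 5.72, 5.64 and 6.01 log2 with rapamycin, 5.70, 5.78 and 6.03 with DMSO and 6.15, 6.11 and 6.45 with KU-0063794. The KU-0063794 arrays were above all 6 others, by 0.45 log2 over rapamycin (adjusted p = 0.203) and 0.40 log2 over DMSO, where it passed (adjusted p = 0.00866). Ifi30, an interferon-inducible lysosomal thiol reductase of antigen processing, was higher by 0.36 log2 (adjusted p = 0.290).

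Several of the higher genes act on RNA or in mitochondria. Sdad1, a ribosome assembly factor, differed by 0.44 log2 (adjusted p = 0.27), Exosc7, a subunit of the RNA exosome, by 0.33 (adjusted p = 0.296) and Pus7, a pseudouridine synthase, by 0.38 (adjusted p = 0.299). Htra2, a mitochondrial protease, differed by 0.38 log2 (adjusted p = 0.296) and Mrpl22, of the mitochondrial ribosome, by 0.32 (adjusted p = 0.299). Mrpl22 was tight within groups, at 5.48, 5.55 and 5.52 log2 with rapamycin and 5.81, 5.90 and 5.81 with KU-0063794. The other 5 were Dtwd1, Rangrf, Ccdc58, 1110038B12Rik and Pcyox1, at 0.34 to 0.46 log2. Groups were without overlap in 11 of the 15, where 646 of 13278 genes (4.87%) were without overlap in that direction. A probe set of opposite sign was present for Timp2 (1 of 6), Ccdc58 (1 of 2) and Pcyox1 (1 of 3).

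The size of these differences depended on the probe set. Of the 15 lower genes 13 have several probe sets, and of the 15 higher genes 7, and only these could move. Averaging all probe sets in place of taking the brightest moved the difference by over 1.5 times for many of them. These were 8 of the 13 lower genes and 4 of the 7 higher ones, each toward 0. Mxd1 then differed by -0.63 log2, Vwa5a by -0.49, Errfi1 by -0.33, Rnf157 by -0.14, Npc2 by -0.21, Prkd3 by -0.22, Trim12a by -0.34 and Smad3 by -0.22. On the higher side Timp2 differed by 0.27 log2, Sdad1 by 0.26, Ccdc58 by 0.05 and Pcyox1 by 0.12. With that mean, 14 of the 15 lower and 13 of the 15 higher genes kept an unadjusted p under 0.05. Both counts include the genes with a single probe set, whose difference stays as it was.

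**Figure D2:**
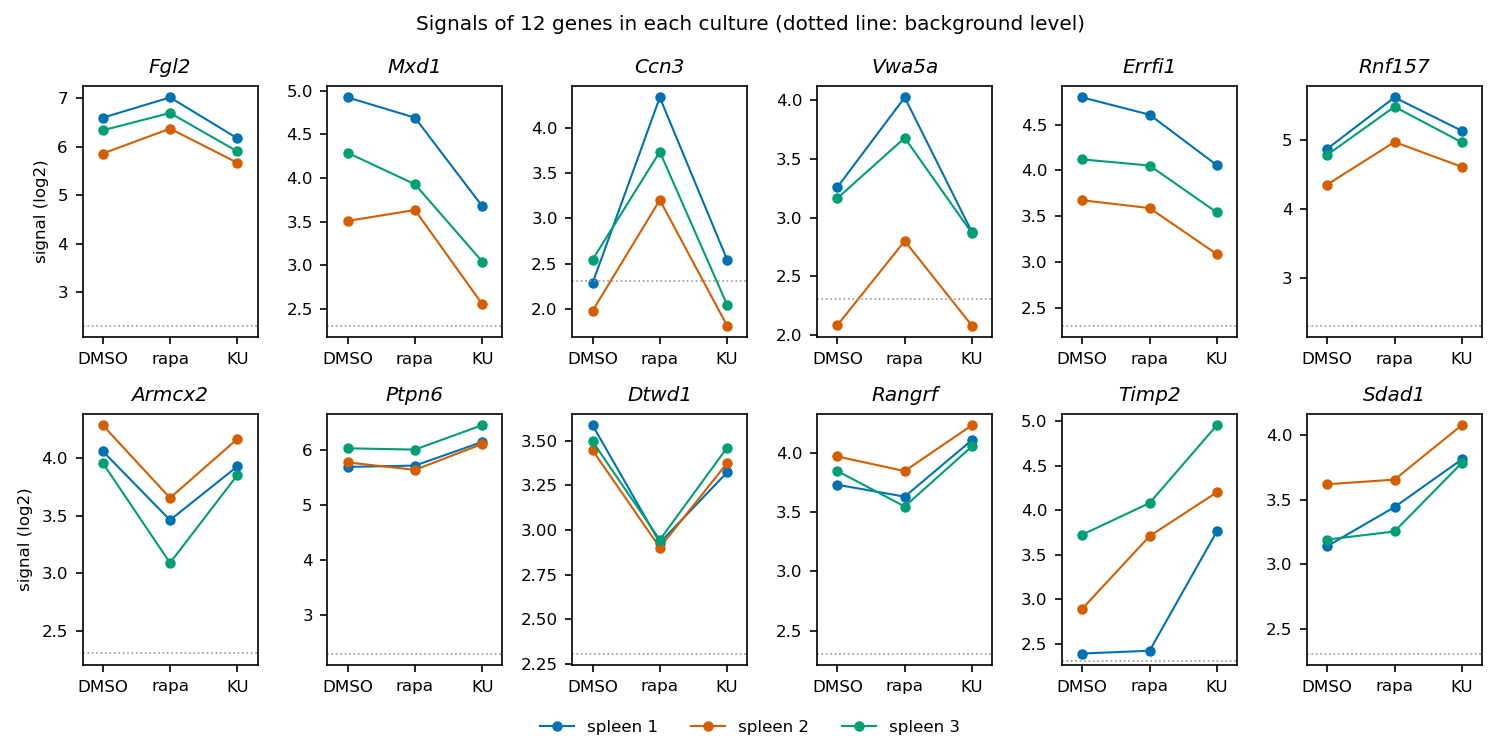
Signals (log2, a scale of its own in each panel) of the 6 leading lower genes (top) and the 6 leading higher genes (bottom) in DMSO, rapamycin (rapa) and KU-0063794 (KU) cultures. Each line joins the 3 cultures of 1 spleen and the dotted line is the background level of 2.31 log2; from rapa to KU every line falls in the top row and climbs in the bottom row, which is how the genes were chosen.

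The DMSO cultures place these differences. The contrasts share arrays, so the positions are a description of 3 group means and no support for one another. Of the 15 lower genes, the DMSO mean lay between the inhibitor means for 10, the rapamycin mean lay between DMSO and KU-0063794 for 3 and the KU-0063794 mean lay between DMSO and rapamycin for 2. Against DMSO, 8 of the 15 rose and 1 fell with rapamycin, while none rose and 4 fell with KU-0063794. Over all genes tested, 6.24% rose and 5.52% fell with rapamycin, and 6.52% rose and 5.86% fell with KU-0063794. The 15 genes of each direction were chosen by their difference between the inhibitors. The same values enter these counts and positions, so the choice favours them. Of the 15 higher genes, rapamycin lay between for 6, DMSO for 5 and KU-0063794 for 4, 2 rose and 6 fell with rapamycin, and 9 rose and 1 fell with KU-0063794. Over the 13278 genes tested, the rapamycin mean lay between for 5049, the KU-0063794 mean for 5014 and the DMSO mean for 3215. For the 6642 genes above background in an inhibitor group, these counts were 2845, 2650 and 1147.

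Interferon response genes formed the list with the lowest median. Interferons act through STAT factors and IRF9 on target genes that restrict viruses and load antigen, and the GBP and IRG families are GTPases of this response. Of 22 tested members, 12 were lower with KU-0063794 at an unadjusted p under 0.05 and none higher, 16 were lower in all 3 spleens and 6 had groups without overlap. Over all genes tested, 4.59% were lower and 5.41% higher at an unadjusted p under 0.05, and 3.3% and 4.87% were without overlap. In all 3 spleens, 1768 (13.3%) were lower and 2162 (16.3%) higher. Among the genes above background in an inhibitor group, 6.37% were lower and 6.11% higher at that p. In all 3 spleens, 19.4% of those genes were lower and 20.5% higher. The list's median difference was -0.28 log2, against 0.01 over all genes, and it was -0.53 in spleen 1, -0.15 in spleen 2 and -0.36 in spleen 3. No member passed the adjusted threshold, and the 12 had adjusted p from 0.296 to 0.465. The 15 members above background in an inhibitor group included 10 of the 12.

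Iigp1, an IRG family GTPase, had the largest difference of the list. It read 5.43, 4.52 and 5.63 log2 with rapamycin and 4.15, 3.83 and 4.52 with KU-0063794 (-1.03 log2, SE 0.24, limma adjusted p = 0.333). It was lower in each spleen, and the groups overlapped only in that the highest KU-0063794 array and the lowest rapamycin array both read 4.52 to 2 decimals. The DMSO arrays were at 3.22, 3.56 and 4.71: Iigp1 rose with rapamycin by 1.36 log2 (adjusted p = 0.0118), and its KU-0063794 difference from DMSO was 0.33 (adjusted p = 0.445).

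The guanylate-binding protein gene Gbp2 read 7.50, 7.13 and 7.61 log2 with rapamycin, 6.96, 6.76 and 6.90 with KU-0063794 and 5.76, 5.84 and 6.37 with DMSO. The 3 groups did not overlap, and Gbp2 rose with both inhibitors, by 1.42 log2 with rapamycin (adjusted p = 0.00189) and by 0.88 with KU-0063794 (adjusted p = 0.00606). Its difference between inhibitors was -0.54 log2. Gbp6 read 5.80, 5.43 and 6.11 log2 with rapamycin and 4.76, 5.03 and 5.34 with KU-0063794 (-0.74 log2), also without overlap, and rose with rapamycin by 0.66 log2 (adjusted p = 0.0457) while its KU-0063794 difference from DMSO was -0.08 (adjusted p = 0.827). Gbp3 rose with rapamycin by 0.59 log2 (adjusted p = 0.00783) and with KU-0063794 by 0.36 (adjusted p = 0.0441), and differed by -0.23 between them.

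Transcription factors of the response read lower in each spleen as well. Irf9 read 3.80, 3.23 and 3.38 log2 with rapamycin and 3.15, 2.99 and 2.90 with KU-0063794 (-0.46 log2, adjusted p = 0.296), without overlap and with DMSO at 3.51, 3.11 and 3.26. Irf1 read 6.17, 6.05 and 6.31 log2 with rapamycin and 5.80, 5.87 and 5.89 with KU-0063794 (-0.32 log2), and rose with rapamycin by 0.44 log2 (adjusted p = 0.0299). Irgm1, another IRG GTPase, differed by -0.53 log2, Xaf1, a proapoptotic interferon target, by -0.68, Oas1a, an antiviral oligoadenylate synthetase, by -0.39, and Tap1, the peptide transporter of antigen loading, by -0.25. Usp18 and Ifit2, at -0.97 and -0.73 log2, had group means under background, and the Usp18 signal came from spleen 1 (4.10 log2 with rapamycin and 1.74 with KU-0063794, against 1.17 or less on the other inhibitor arrays).

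The immunoproteasome genes Psmb8 and Psmb9 differed by -0.05 and -0.15 log2, and Ifit3, at background, by 0.17. Spleen 1 had the lowest list median. Without replicate 1 in any group, 7 members were lower at an unadjusted p under 0.05 and the median was -0.24 log2, and without the third KU-0063794 array 7 were lower with a median of -0.26. Members beyond the highest and lowest of each list were named here after their values were seen, as those with an unadjusted p under 0.05.

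**Figure D3:**
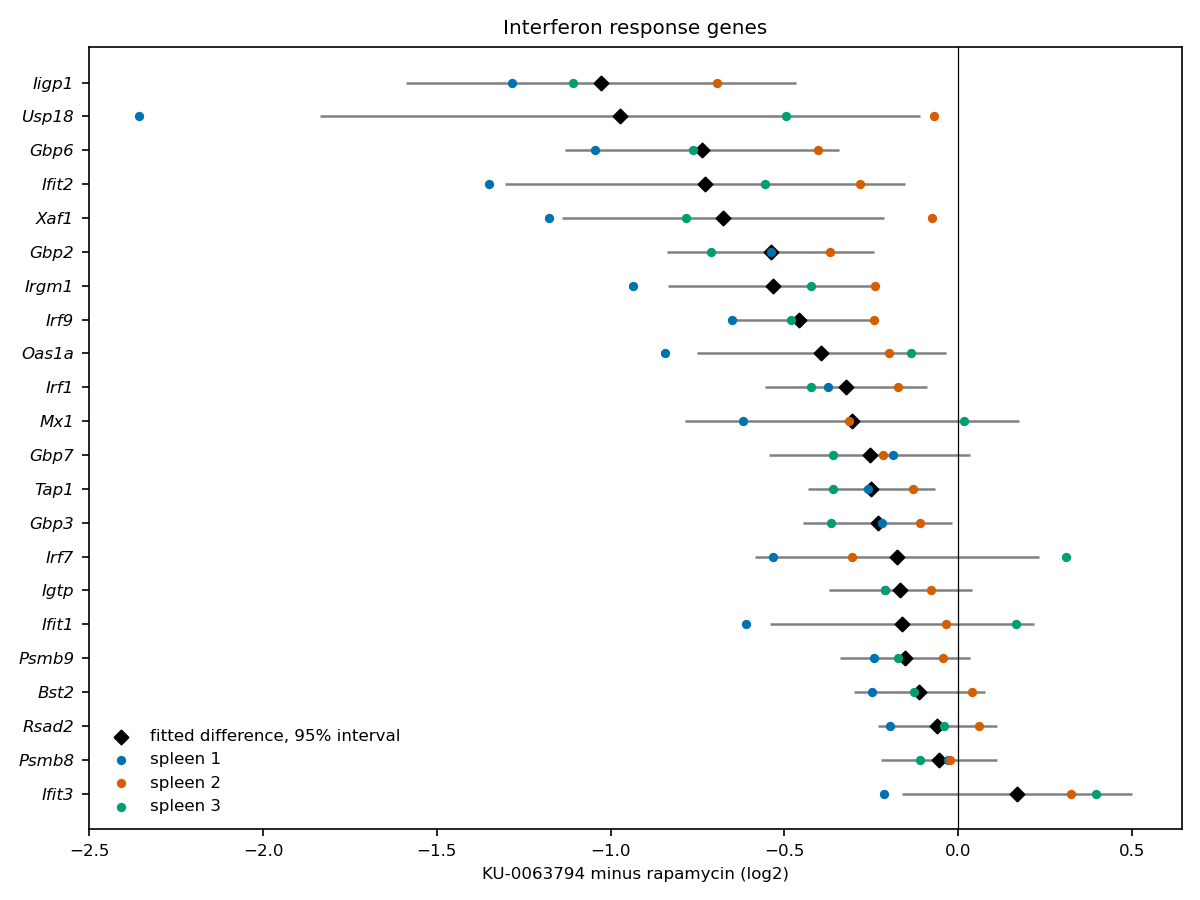
Difference between KU-0063794 and rapamycin (log2, horizontal) of the 22 tested interferon response genes, ordered by size. Diamonds are fitted differences with 95% intervals, and coloured points are the 3 spleens; 21 of 22 fitted differences are below 0 and spleen 1 has the lowest value for most of the genes at the top.

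Promoters of this list share a motif with its known regulators. The RefSeq promoter table (GRCm38.p6, 250 bases before to 50 after each start) held windows for 18 of the 22 genes, and the core of the interferon-stimulated response element, GAAA followed after any 2 bases by a further GAAA and searched on both strands, occurred in 10 of them (55.6%), against 3.99% of all 27025 genes with a window. The motif was chosen after the expression values were seen, and the list was made of known interferon targets. The 10 included Gbp2, Gbp3, Irgm1 and Oas1a from the 12 lower genes, and Ifit1, Ifit3 and Rsad2, which were at background. The others, Bst2, Gbp7 and Igtp, were not among the 12 lower genes either. The motif was thus not confined to the lower genes of the list. The promoter stretches of 4 of the lower genes are shown 5' to 3' on the gene's strand, with every base that lies in a match in capitals, so that overlapping matches form 1 longer run, and a match on the other strand reads as TTTC repeated in the same way.
Gbp2 (chr3:142620579-142620638, + strand): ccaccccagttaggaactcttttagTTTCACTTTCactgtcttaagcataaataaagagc
Gbp3 (chr3:142559974-142560033, + strand): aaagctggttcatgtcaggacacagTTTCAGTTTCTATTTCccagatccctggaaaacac
Irgm1 (chr11:48871421-48871480, - strand): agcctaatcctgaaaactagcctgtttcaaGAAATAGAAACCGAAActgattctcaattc
Oas1a (chr5:120907526-120907585, - strand): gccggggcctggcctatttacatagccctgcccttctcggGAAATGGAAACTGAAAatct
The Gbp2 match lies 49 bases from the start site and the Oas1a match 10 bases from it. A further motif chosen after the values were seen, TTCNNNGAA, occurred in 7 of the 18 genes (38.9%), against 9.55% of all genes. A match is a description of the letters, and binding was not measured here.

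Leaving aside the background genes and lists of fewer than 5 tested genes, the lists that make ribosomes, nucleotides and secreted proteins had the highest medians, and their differences were small. The 4 tested erythroid and stromal markers, none with an inhibitor group mean above background, had a median of 0.18 log2 and the 20 tested background genes one of 0.09. Of 28 ribosome biogenesis genes, 8 were higher with KU-0063794 at an unadjusted p under 0.05 and none lower, against 5.41% and 4.59% of all genes. In all 3 spleens 18 were higher, against 16.3% of all genes, and 7 were without overlap, against 4.87%. The median difference was 0.12 log2, and 0.11, 0.14 and 0.16 in spleens 1, 2 and 3. Gnl3, the nucleolar protein nucleostemin, read 6.43, 6.44 and 6.33 log2 with rapamycin and 6.76, 6.81 and 6.52 with KU-0063794 (0.29 log2, SE 0.08, limma adjusted p = 0.364), without overlap. Gar1, of the box H/ACA particles that modify ribosomal RNA, read 6.50, 6.63 and 6.58 log2 with rapamycin and 6.71, 6.83 and 6.91 with KU-0063794 (0.25 log2, adjusted p = 0.349). Against DMSO, 7 of the 28 rose with KU-0063794, among them Gar1 (0.50 log2, adjusted p = 0.00495) and Tcof1 (0.33 log2, adjusted p = 0.0452), and 1 rose with rapamycin, where 6.52% and 6.24% of all genes rose. The list counts depend on single arrays: leaving out spleen 3 left 2 higher genes, spleen 2 left 5, the first KU-0063794 array 4, and replicate 3 of either inhibitor 5.

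Nucleotide synthesis had 5 of 22 genes higher at an unadjusted p under 0.05 (5.41% of all genes) and none lower (4.59%), with a median of 0.12 log2. Mthfd1, a folate enzyme that feeds purine synthesis, read 5.23, 5.45 and 5.44 log2 with rapamycin and 5.52, 5.74 and 5.78 with KU-0063794 (0.30 log2, adjusted p = 0.328), without overlap. Against DMSO, 10 of the 22 rose with KU-0063794 and 4 with rapamycin, where 6.52% and 6.24% of all genes rose. The unfolded protein response list had 5 of 20 higher and none lower, a median of 0.11 log2, with Pdia6, a disulfide isomerase of the endoplasmic reticulum, at 7.15, 7.26 and 7.39 log2 with rapamycin and 7.39, 7.53 and 7.65 with KU-0063794 (0.26 log2, adjusted p = 0.333). With single arrays or spleens left out, the count lay between 2 and 7 for nucleotide synthesis and between 2 and 5 for the unfolded protein response. Cytosolic ribosomal protein genes, whose mRNA translation mTOR controls, had no member at an unadjusted p under 0.05 among 16 tested and a median of -0.01.

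Sterol synthesis genes, targets of SREBP2 and thereby of mTOR complex 1, fell with both inhibitors, and more members read lower with KU-0063794 than higher. Against DMSO, 13 of 17 fell with rapamycin and 14 of 17 with KU-0063794, where 5.52% and 5.86% of all genes fell. The list's median differences were -0.50 and -0.66 log2. Between the inhibitors, 5 of 17 were lower at an unadjusted p under 0.05 (4.59% of all genes) and none higher (5.41%), with a median of -0.11 log2. Fdft1, squalene synthase, read 5.90, 5.69 and 5.80 log2 with rapamycin, 5.62, 5.35 and 5.54 with KU-0063794 and 6.35, 6.13 and 5.95 with DMSO. Its groups did not overlap and stood in the order DMSO, rapamycin, KU-0063794, with -0.29 log2 between the inhibitors (SE 0.09, limma adjusted p = 0.376), although 2 of its 4 probe sets had the opposite sign and their mean gave -0.04. Fdps, farnesyl diphosphate synthase, differed by -0.23 log2, Msmo1 by -0.23, Mvd by -0.25 and Cyp51 by -0.18, all enzymes of the pathway, while Sqle, squalene epoxidase, differed by 0.06. The count was 1 when spleen 2 was left out and 2 to 3 without spleen 1, the third rapamycin array or the first or second KU-0063794 array.

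Hmgcs1, which makes the HMG-CoA that enters the pathway, read 8.34, 7.86 and 7.75 log2 with rapamycin, 8.09, 7.62 and 7.69 with KU-0063794 and 9.28, 8.55 and 8.56 with DMSO. It was lower in each spleen with KU-0063794, by 0.06 log2 at the least, and the 95% interval of the difference was -0.38 to 0.01. Hmgcs1 was the only gene of the 14 in this list with a promoter window to hold the SREBP motif TCACNCCAC on either strand (7.14%, against 1.44% of all genes with a window), in this stretch with the motif in capitals.
Hmgcs1 (chr13:119690188-119690247, + strand): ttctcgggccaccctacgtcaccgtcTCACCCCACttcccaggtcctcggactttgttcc
Its match lies 128 bases from the start site, in the window before it.

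The transcription factors TFEB and TFE3 are known to switch on lysosome and autophagy genes. Of 33 tested, none passed the adjusted threshold, and 7 were lower at an unadjusted p under 0.05 (4.59% of all genes) and 1 higher (5.41%). In all 3 spleens 15 were lower (13.3% of all genes), and 8 were lower without overlap (3.3%), with a list median of -0.11 log2. Lamp2, a lysosomal membrane protein, read 5.15, 5.08 and 5.36 log2 with rapamycin, 4.90, 4.89 and 4.88 with KU-0063794 and 4.83, 4.81 and 4.78 with DMSO (-0.30 log2 between inhibitors, limma adjusted p = 0.342). The inhibitor groups did not overlap, and Lamp2 rose with rapamycin by 0.39 log2 (adjusted p = 0.0216). Ctsa, a lysosomal carboxypeptidase, differed by -0.28 log2 and Sqstm1, the autophagy receptor p62, by -0.28. Against DMSO, 7 members rose and 3 fell with rapamycin, where 6.24% of all genes rose and 5.52% fell. With KU-0063794, 2 members rose and 4 fell, where 6.52% of all genes rose and 5.86% fell. Without spleen 1 or without spleen 3 the count of genes lower with KU-0063794 than with rapamycin was 4. The E-box CACGTG, which TFEB and TFE3 share with MYC and others, occurred in the promoter window of 12 of 28 genes (42.9%) against 8.09% of all genes. In other lists it occurred in 22.7% of FOXO targets, 21.4% of sterol synthesis, 18.2% of ribosome biogenesis, 9.52% of ATF4 target and 0% of interferon response genes. A share above that of all genes was thus not particular to the lysosome list.

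**Figure D4:**
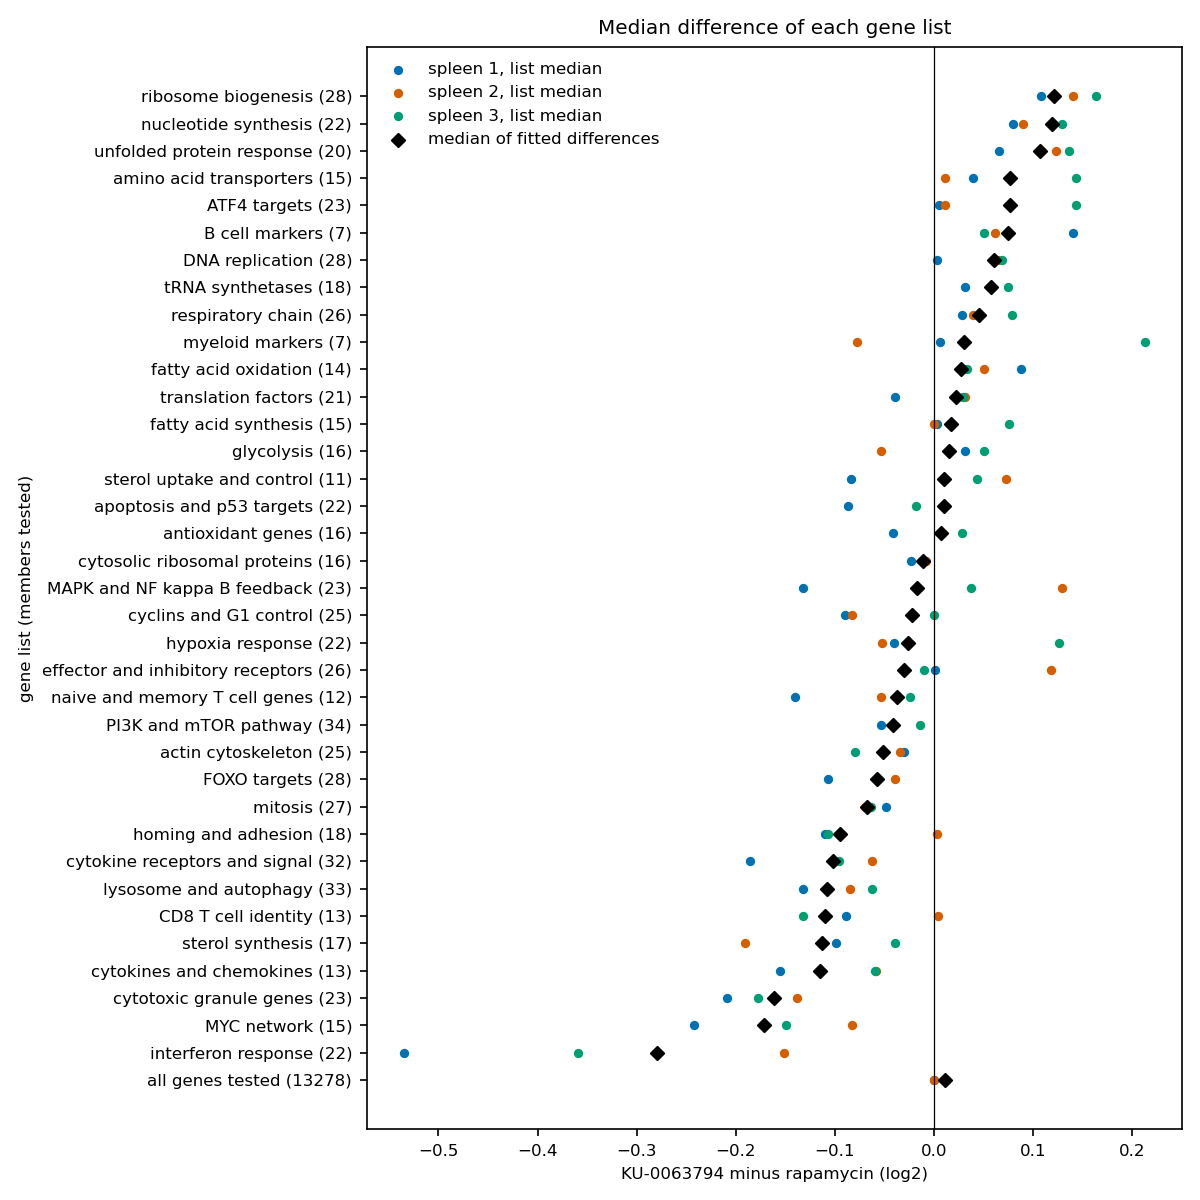
Median difference between KU-0063794 and rapamycin (log2, horizontal) of each gene list with at least 5 tested members, whose number is given, other than the background list. Diamonds are medians of fitted differences and coloured points are the medians within the 3 spleens; the interferon response is lowest at -0.28, ribosome biogenesis highest at 0.12, and all genes tested lie at 0.01.

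Genes of killing and of cytokine secretion differed in both directions, and none passed the adjusted threshold. Of 23 cytotoxic granule genes, 7 were lower with KU-0063794 than with rapamycin at an unadjusted p under 0.05 and 1 higher. The shares over all genes were 4.59% and 5.41%, and the list's median was -0.16 log2. Fasl, the ligand that triggers death through Fas, read 6.61, 4.66 and 5.60 log2 with rapamycin and 5.89, 4.03 and 5.03 with KU-0063794 (-0.64 log2, SE 0.12, limma adjusted p = 0.296). The spleens differed far more than the inhibitors, and within each spleen KU-0063794 was lower by 0.57 to 0.72 log2. Serpinb9, which shields killer cells from their own granzyme B, differed by -0.41 log2 (adjusted p = 0.333) on top of a drop against DMSO with both inhibitors, by 0.98 log2 with rapamycin and by 1.40 with KU-0063794. Gzmd and Gzme, granzymes that fell by 3.60 and 2.96 log2 with rapamycin, differed between inhibitors by -0.76 and -0.55, at signals that partly lay under background, and Gzmd by -0.49 without spleen 1. Gzmb, granzyme B, differed by 0.01 log2 (95% interval -0.14 to 0.16) and Prf1, perforin, by -0.25 (-0.69 to 0.18). Gzmb gave the highest signal on each DMSO array (12.38, 12.27 and 12.34 log2). It read 12.00 to 12.16 log2 with the inhibitors, where the highest signals of the arrays were 12.19 to 12.26. So close to the top of the scale a difference may be understated, and the narrow interval does not show equal Gzmb levels. Leaving out spleen 1, or its KU-0063794 array, left 4 lower granule genes.

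Ifng, the interferon gamma gene, was at 7.63, 7.57 and 6.55 log2 with rapamycin and 7.60, 7.49 and 6.60 with KU-0063794, against 10.54, 9.62 and 9.44 with DMSO. It fell by 2.62 and 2.63 log2 with the respective inhibitors (adjusted p = 0.000819 and 0.000643), and the difference between them was -0.02 (95% interval -0.41 to 0.38). Ccl5, a chemokine of effector cells, read 5.77, 5.40 and 5.26 log2 with rapamycin, 4.83, 5.04 and 4.52 with KU-0063794 and 4.52, 4.81 and 4.82 with DMSO. Its inhibitor groups did not overlap (-0.68 log2, adjusted p = 0.333), and it rose with rapamycin by 0.76 log2 (adjusted p = 0.0215). Lta, lymphotoxin alpha, stood in the order DMSO, rapamycin, KU-0063794 without overlap, at 8.15, 8.26 and 8.11, then 7.30, 7.56 and 7.38, then 7.20, 7.20 and 7.0 log2. Of 13 cytokine and chemokine genes, 4 were lower (4.59% of all genes) and 2 higher (5.41%), the latter Csf1 (0.50 log2) and Csf2 (0.28). Without spleen 3, 2 were lower.

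Receptors of the effector and inhibitory list went both ways, 7 of 26 higher and 4 lower at an unadjusted p under 0.05. The shares over all genes were 5.41% and 4.59%, and the list's median was -0.03 log2. The inhibitory receptor gene Ctla4 read 6.18, 6.40 and 6.34 log2 with rapamycin and 6.71, 6.84 and 6.61 with KU-0063794 (0.42 log2, SE 0.10, limma adjusted p = 0.333), without overlap, and rose against DMSO (5.97, 6.46 and 5.97) with KU-0063794 by 0.59 log2 (adjusted p = 0.00883). Pdcd1, which encodes PD-1, read 2.50, 2.06 and 2.59 log2 with rapamycin, 2.85, 2.78 and 2.76 with KU-0063794 and 3.44, 3.29 and 3.17 with DMSO. It fell with both, and the groups did not overlap. Its second rapamycin array was under background, so the sizes of its fall with rapamycin and of its difference between inhibitors are uncertain. Lag3 read 1.36, 2.33 and 1.91 log2 with rapamycin and 2.42, 2.93 and 2.49 with KU-0063794, with 2 of the 3 rapamycin arrays under background, so that the difference has no measured lower end. Icos, a costimulatory receptor, differed by 0.39 log2, and the activation regulator Irf4 by 0.41.

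On the lower side Cd69, an early activation marker that holds cells in tissue, read 4.49, 3.86 and 3.84 log2 with rapamycin, 3.77, 3.42 and 3.43 with KU-0063794 and 5.06, 4.21 and 4.52 with DMSO. It fell with both inhibitors, by 0.54 log2 with rapamycin (adjusted p = 0.0166) and by 1.06 with KU-0063794 (adjusted p = 0.0017), and differed by -0.52 between them (adjusted p = 0.296) without overlap. Cd44 differed by -0.34 log2. Without spleen 1, 3 receptors were higher, and the lower count was 2 without spleen 3 or without replicate 3 of any one group or replicate 2 of rapamycin. Among cytokine receptor and signalling genes, 7 of 32 were lower (4.59% of all genes) and none higher (5.41%), with a median of -0.10 log2. They were the receptor genes Il6st (-0.40 log2), Il15ra (-0.37, under background), Il4ra (-0.33) and Ifnar2 (-0.32), the signal transducers Stat3 (-0.24) and Stat5b (-0.23), and Socs1 (-0.27), which encodes a feedback inhibitor of JAK-STAT signalling. With the mean of its 4 probe sets, 2 of them of opposite sign, Il6st differed by -0.05 log2.

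FOXO target genes went both ways. At an unadjusted p under 0.05, 3 of 28 (10.7%) read higher and 5 (17.9%) lower with KU-0063794, against 5.41% and 4.59% of all genes. In all 3 spleens 14.3% were higher and 32.1% lower, against 16.3% and 13.3% of all genes, and the list's median was -0.06 log2. Any part of complex 2 in these differences was not tested. Klhl24 read 3.13, 3.30 and 2.56 log2 with rapamycin, 2.26, 2.56 and 1.65 with KU-0063794 and 1.23, 1.44 and 1.52 with DMSO (-0.84 log2, SE 0.19, limma adjusted p = 0.333). With the mean of its 5 probe sets, 2 of them of opposite sign, this was -0.19 log2. Klhl24 passed against DMSO with both inhibitors (adjusted p = 0.00314 with rapamycin and 0.0371 with KU-0063794), but all 3 DMSO arrays and 2 of the 3 KU-0063794 arrays were under background, so none of its differences has a measured size. Ccr7, a receptor for entry into lymph nodes, read 3.74, 4.02 and 4.37 log2 with rapamycin, 3.16, 3.58 and 3.78 with KU-0063794 and 2.61, 3.54 and 3.21 with DMSO. It rose with rapamycin by 0.93 log2 (adjusted p = 0.00585), and its KU-0063794 difference from DMSO was 0.39 (adjusted p = 0.105). Ccng2, a cyclin of resting cells, rose with both by 1.04 and 0.68 log2 and differed by -0.36, and Sesn3, a sestrin that restrains complex 1, fell with both by 0.73 and 1.12 log2 and differed by -0.39. Without spleen 1 the difference was -0.17 log2 for Sesn3 and -0.22 for Ccng2.

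On the higher side were Bcl2l11, which encodes the death protein BIM, at 0.34 log2, Cited2 at 0.41 and Klf2, a homing regulator, at 0.47. Klf2 read 1.96, 1.40 and 1.52 log2 with rapamycin and 2.07, 1.84 and 2.37 with KU-0063794, under background on 5 of these 6 arrays. Without spleen 3 the Klf2 difference was 0.27 log2, and without spleen 1 that of Bcl2l11 was 0.21. The count of lower FOXO targets was 3 without spleen 1 or its KU-0063794 array and 8 without the second rapamycin array. In the PI3K and mTOR pathway list, 1 of 34 genes was higher and 1 lower at an unadjusted p under 0.05, Tsc2 (0.23 log2) and Sesn3. Each is 2.94% of the list, under the shares of all genes, 5.41% higher and 4.59% lower. Mtor differed by 0.10 and Rictor, the defining subunit of complex 2, by 0.05.

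A panel of 30 T cell and metabolic genes, 25 of them tested, was also compared. The 95% interval lay within 2-fold for 24 of 25, the exception being Klhl24, and for 99.7% of all genes tested. It included 0 for 18 of the 25. Klf2, S1pr1, Irs2 and Cdkn1b had means under background with both inhibitors, where a narrow interval says little about the gene. Myc differed by -0.09 log2 and had risen against DMSO with both, by 0.48 with rapamycin (adjusted p = 0.00881) and by 0.39 with KU-0063794 (adjusted p = 0.0175). Slc2a1, the main glucose transporter, and Hk2, hexokinase 2, fell with both and differed by 0.12 and 0.23 log2. The T-box regulator Tbx21 differed by -0.04, Eomes by -0.31 and the interleukin 7 receptor gene Il7r by 0.12.

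**Figure D5:**
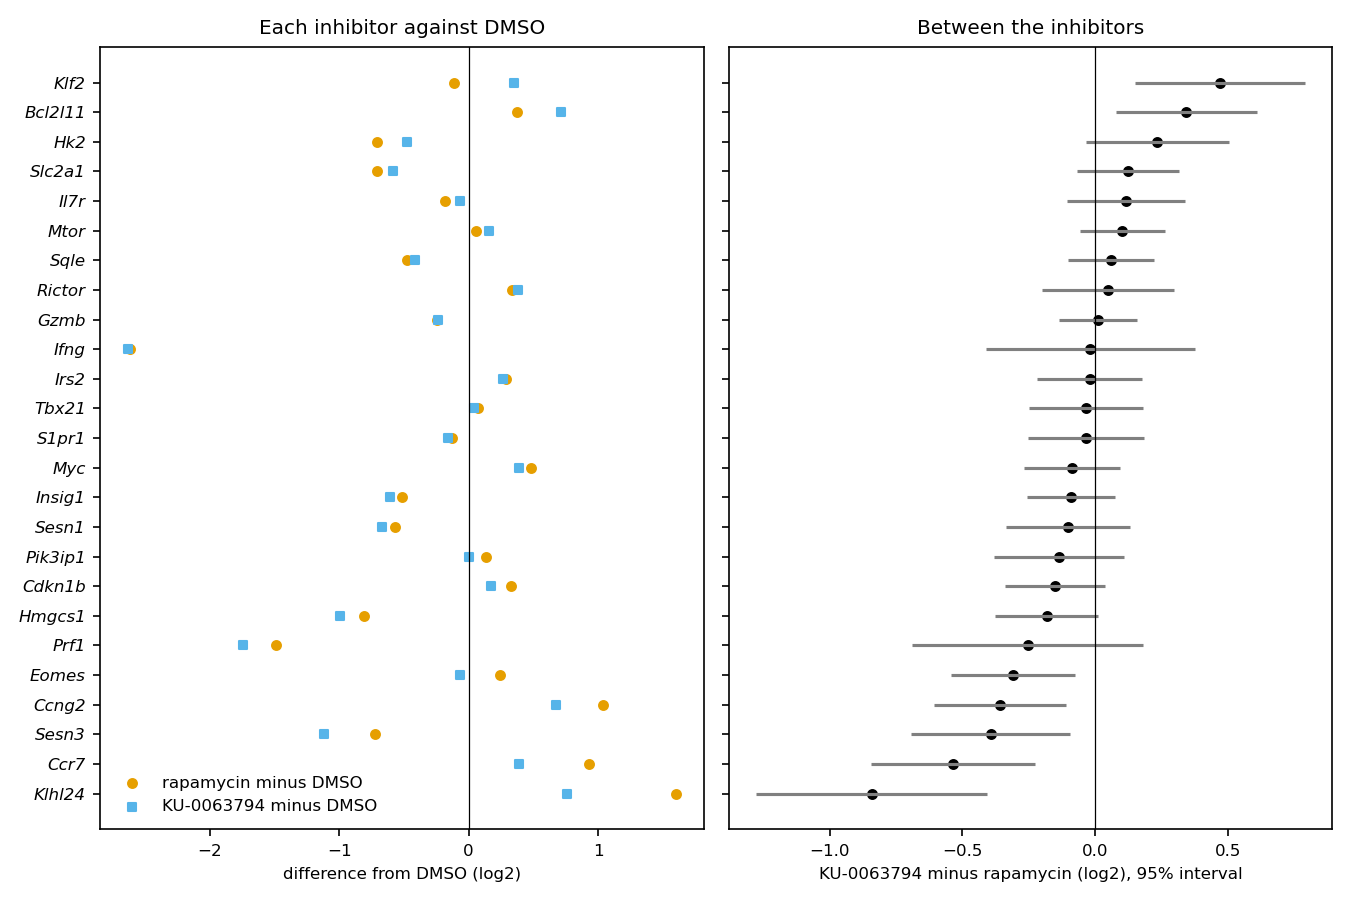
Differences of 25 panel genes from DMSO with rapamycin (circles) and with KU-0063794 (squares) at left, and between the inhibitors with 95% intervals at right, all in log2. The contrasts at left share the DMSO arrays; Ifng is at -2.62 and -2.63 at left and at -0.02 at right, and Klhl24 at -0.84 has the only interval that reaches beyond 2-fold.

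Other programmes moved against DMSO with each inhibitor, and their median differences between the inhibitors were small. Of 27 mitosis genes, 25 rose with rapamycin and 26 with KU-0063794, where 6.24% and 6.52% of all genes rose. Between the inhibitors none had an unadjusted p under 0.05, where 5.41% of all genes were higher and 4.59% lower. The list's median was -0.07 log2. Of 28 DNA replication genes, 14 rose with rapamycin and 20 with KU-0063794, with none at an unadjusted p under 0.05 between them and a median of 0.06. Glycolysis genes fell, 12 of 16 with each inhibitor, where 5.52% of all genes fell with rapamycin and 5.86% with KU-0063794. The glycolysis genes differed between the inhibitors by a median of 0.01, with 1 higher and 2 lower.

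Targets of ATF4, the factor of the amino acid response that complex 1 sustains, fell with rapamycin (18 of 23) and with KU-0063794 (19 of 23). Over all genes 5.52% and 5.86% fell, and the list's medians were -0.51 and -0.53 log2. Between the inhibitors 4 were higher and 1 lower, against 5.41% and 4.59% of all genes. The higher ones, Psph of serine synthesis (0.25 log2), asparagine synthetase Asns (0.19), Phgdh (0.16) and the transporter gene Slc7a1 (0.15), all missed an unadjusted p under 0.05 without spleen 1, without spleen 3, and without replicate 1 or 3 of KU-0063794 or replicate 3 of rapamycin. The lower one, Ddit3, which encodes the stress factor CHOP, read 3.63, 3.21 and 3.60 log2 with rapamycin, 3.12, 2.73 and 2.73 with KU-0063794 and 4.39, 3.61 and 3.76 with DMSO (-0.62 log2, adjusted p = 0.296; -0.33 with the mean of its probe sets), without overlap between the inhibitors. Slc7a3, a cationic amino acid transporter gene, fell by 2.49 log2 with rapamycin and by 1.78 with KU-0063794. All 3 rapamycin arrays were under background and the KU-0063794 mean was not above it, so the size of neither fall is measured.

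The MYC network list, beside Mxd1, had 4 other lower and 2 higher genes of 15, with a median of -0.17 log2. Over all genes, 4.59% were lower and 5.41% higher. Max, the partner of both MYC and MXD1, read lower by 0.27 log2 (adjusted p = 0.337) and the G1 cyclin gene Ccnd2 by 0.25, after a fall against DMSO with both inhibitors, while Mlx differed by 0.33. Its lower count was 3 without spleen 1, without the first array of either inhibitor or without the third KU-0063794 array. Pdcd4, an inhibitor of the helicase eIF4A, rose with rapamycin by 0.82 log2 (adjusted p = 0.00209) and with KU-0063794 by 0.41 (adjusted p = 0.0168). It read 6.31, 6.02 and 6.26 log2 with rapamycin, 5.91, 5.60 and 5.84 with KU-0063794 and 5.36, 5.16 and 5.60 with DMSO, lower by 0.41 log2 with KU-0063794 than with rapamycin (adjusted p = 0.296), without overlap between the inhibitors. It was the 1 translation factor gene of 21 at an unadjusted p under 0.05. With the mean of all probe sets, differences given above as larger became 0.22 log2 for Csf1, 0.14 for Mlx, 0.05 for Slc7a1, 0.16 for Pdia6, 0.20 for Mthfd1 and -0.17 for Prf1, while those of Mtor and Rictor were 0.02 and -0.04.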

How the data were processed

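The 9 arrays were analysed as 3 groups of 3. The deposited values are log2 signals per probe set, made with Affymetrix Expression Console 1.3.1 per the submitters' processing notes; the background, summarisation and normalization methods are not given in the sources used here. Of 45101 probe sets, 34945 carried 1 gene symbol in the platform annotation and were used; 932 had several symbols, 9160 were not listed and 64 were controls. The probe set with the highest mean represented each of 18193 genes, and 13278 above the 40th percentile were tested.

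Differences were fitted with limma 3.58.1 in R 4.3.3 on group and spleen over all 9 arrays (4 residual degrees of freedom), with two-sided moderated tests and Benjamini-Hochberg adjustment over 13278 genes at 0.05. The spleen was a block because the study drew each set of cultures from the same spleens. Deviations from group means correlated across genes in all 9 same-spleen pairs of arrays (r from 0.345 to 0.533). The 18 other pairs had r from -0.414 to -0.0791. Deviations sum to 0 within a group, so negative r in the other pairs follows in part from the centring. The procedure was tested on simulated data. The background level is the 95th percentile of 30 tissue-restricted genes; without Mbp it is 1.51 log2, and 13 of the 15 higher and 12 of the 15 lower named genes are shared.

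The named genes are, per direction, the 15 with the smallest p among those with the same sign in 3 spleens and above background, since no gene passed, together with the highest and lowest member of each of 40 lists and the panel. The comparison, lists and panel were chosen with earlier results of these data known. No set tests were run. The number of arrays limits the precision. Alternatives covered the block, the arrays fitted, normalization, filters, probe sets, variance models and leaving out arrays or spleens; 1 was added after seeing the data. Promoters are from RefSeq (GRCm38.p6). Some panel genes are not reported here.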

Additional observations from a re-analysis of the deposited data

How the results depend on the processing

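Of 26 alternatives, 20 again put no gene past the threshold between the inhibitors. Quantile normalization gave 4 genes (2 of them at 2-fold), median centring 4 (1), testing only genes above background 5 (1), an intensity trend 75 (2) and array weights 3 (2). Those of quantile normalization and median centring were Ccn3, Fgl2, Mxd1 and Vwa5a; Errfi1 joined them among genes above background, and array weights gave Ccn3, Fgl2 and Mxd1. Of the 75 genes with an intensity trend, 51 were lower and 24 higher. Leaving out single arrays or spleens gave 0 to 1 genes, the 1 being Ccn3 without the first DMSO array, also at 2-fold.

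Genes at an unadjusted p under 0.05 numbered 1329. Without the replicate block there were 629, with no gene past the threshold and a smallest adjusted p of 0.854, and 21 of the 30 leading genes kept an unadjusted p under 0.05. On the 6 inhibitor arrays alone without the replicate block there were 626. Leave-one-out fits gave 862 to 1374, the lowest without spleen 3. The alternative added after seeing the data, which left out the third rapamycin array with its pair among the 6 inhibitor arrays, gave 847.

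All 30 leading genes kept their sign in the 26 alternatives. They were chosen for the same sign in all 3 spleens. Leaving out a spleen or changing the block therefore could not change it, and the kept signs are no separate support. Of 115 named genes, 15 changed sign in some alternative, 32 times in all, and with the replicate block none of these 15 had an unadjusted p under 0.05. The interferon list's median stayed between -0.39 and -0.20 log2, with 5 to 15 lower members; ribosome biogenesis had 2 to 16 higher members, sterol synthesis 1 to 8 lower, lysosome 3 to 10, granule genes 2 to 9 and cytokine receptors 2 to 10. The causes were not tested. Signals under 2.31 log2 and 4 residual degrees of freedom limit what could be called.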
